A study of Rattus norvegicus with 4 samples.

Results

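The genes described here are targets of p53, taken as the rows of the deposited expression table whose gene name equals one of 10 listed symbols: Mdm2, Ccng1, Bax, Bbc3, Fas, Sesn1, Zmat3, Tp53inp1, Phlda3 and Pmaip1. Of these 10, 9 were present in the table of 32623 genes, each in 1 row, and Bbc3 was not analysed here. All 9 had enough counts to be tested, between 115 and 14621 per library. The samples were cells labelled TSPC, for tendon stem/progenitor cells, which grow out of tendon with a fibroblast-like form, here from rat. They received either U0126, which inhibits MEK and so blocks activation of ERK (2 libraries), or the solvent DMSO (2 libraries). The labels name no dose, exposure time, strain, age or number of animals. They number the libraries as biological replicates without naming their cultures or animals, so p-values cover only the spread between these libraries. The comparison addresses which transcripts differ when MEK is inhibited in these cells.

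p53 is a transcription factor that responds to DNA damage and other stress. It is held low by Mdm2, a ubiquitin ligase that is itself a p53 target, so that the pathway restrains itself. Its targets stop the cell cycle, sensitise cells to death through surface receptors and mitochondria, or adjust metabolism, and in fibroblast-like cells p53 is best known for cell cycle arrest and senescence. Several of these genes also respond to other transcription factors.

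Promoter sequences are shown for the 4 genes below that changed and had one, and for Sesn1, which did not pass the test. Phlda3, the other gene with a promoter that did not pass, is not shown. They are RefSeq sequences of build GRCr8, the 250 bases before each annotated start, written 5′ to 3′ on the gene's strand. Of the 9 genes, 6 matched a promoter by symbol. Capitals mark a match to 1 of 3 patterns, searched on both strands. The p53 pattern is the 10-base consensus, of which a full p53 site holds a pair. TTACGTCA is a site of the CREB and ATF type. TGANTCA is a loosened AP-1 pattern, in which any middle base (N) was allowed.
Ccng1 (chr10:25684877-25685126, GRCr8, minus strand): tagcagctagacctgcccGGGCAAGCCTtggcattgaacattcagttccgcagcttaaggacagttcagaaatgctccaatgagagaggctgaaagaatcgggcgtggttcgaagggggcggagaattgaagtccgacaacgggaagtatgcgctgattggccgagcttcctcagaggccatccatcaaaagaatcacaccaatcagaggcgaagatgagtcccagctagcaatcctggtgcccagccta
Sesn1 (chr20:46948469-46948718, GRCr8, plus strand): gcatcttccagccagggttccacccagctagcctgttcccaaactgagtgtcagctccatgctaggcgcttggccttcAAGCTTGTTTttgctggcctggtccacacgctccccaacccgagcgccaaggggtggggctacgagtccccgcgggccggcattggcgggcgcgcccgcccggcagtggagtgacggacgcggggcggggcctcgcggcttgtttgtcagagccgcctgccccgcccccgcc
Fas (chr1:241211905-241212154, GRCr8, plus strand): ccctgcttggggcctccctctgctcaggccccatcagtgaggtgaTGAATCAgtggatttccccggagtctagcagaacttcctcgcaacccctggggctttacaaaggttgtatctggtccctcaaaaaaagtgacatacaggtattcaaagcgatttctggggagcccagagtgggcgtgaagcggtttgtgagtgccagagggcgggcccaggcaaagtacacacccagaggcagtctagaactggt
Mdm2 (chr7:55200792-55201041, GRCr8, minus strand): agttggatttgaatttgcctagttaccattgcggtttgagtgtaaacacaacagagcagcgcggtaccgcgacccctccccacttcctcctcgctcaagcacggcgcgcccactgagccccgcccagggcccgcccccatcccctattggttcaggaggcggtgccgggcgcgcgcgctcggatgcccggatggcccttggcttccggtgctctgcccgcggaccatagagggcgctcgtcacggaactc
Pmaip1 (chr18:62255720-62255969, GRCr8, plus strand): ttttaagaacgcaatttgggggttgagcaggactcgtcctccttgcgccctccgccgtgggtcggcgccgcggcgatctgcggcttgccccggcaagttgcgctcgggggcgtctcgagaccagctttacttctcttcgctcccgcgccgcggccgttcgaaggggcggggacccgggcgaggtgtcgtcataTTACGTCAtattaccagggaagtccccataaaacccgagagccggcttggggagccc
The p53 consensus was found in Ccng1, as GGGCAAGCCT, and in Sesn1, as AAGCTTGTTT, and in 6.64% of all 33469 promoters over the same 250 bases. The Fas window held TGAATCA, a match to the loosened pattern that is not shown to be an AP-1 site. Of all promoters, 6.34% held TGANTCA. The Pmaip1 window held TTACGTCA, from 57 to 50 bases before the start. That pattern was picked after the Pmaip1 sequence had been read, and 0.75% of all promoters held it. The 3 patterns did not overlap in these windows, and none of them was found in Mdm2 or in Phlda3. A GC box (GGGCGG, not in capitals) was present in all 6 windows and in 30.5% of all promoters. In human and mouse the well-studied p53 sites of Mdm2 and Fas lie in the first intron, outside these windows.

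With U0126, 4 of the 9 p53 targets rose, 1 fell and 4 did not pass the test. The risers were Fas (2.31-fold), Tp53inp1 (2.24-fold), Ccng1 (1.38-fold) and Mdm2 (1.25-fold), and Pmaip1 fell to 0.638 of its DMSO level. Calls rest on the quasi-likelihood F test of edgeR at a threshold of 0.05, with p-values adjusted after Benjamini and Hochberg across the 14023 genes tested. Among all tested genes 19.9% passed, 8.41% as higher and 11.5% as lower with U0126, while 55.6% of the 9 targets passed. Their median log2 fold change was 0.31, and that of all tested genes was 0.02. The targets were chosen with earlier results of these data known, so these counts are a description without a test. In 7 of the 9 the U0126 and DMSO libraries did not overlap, and the same held for 62.8% of all tested genes.

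**Figure D1:**
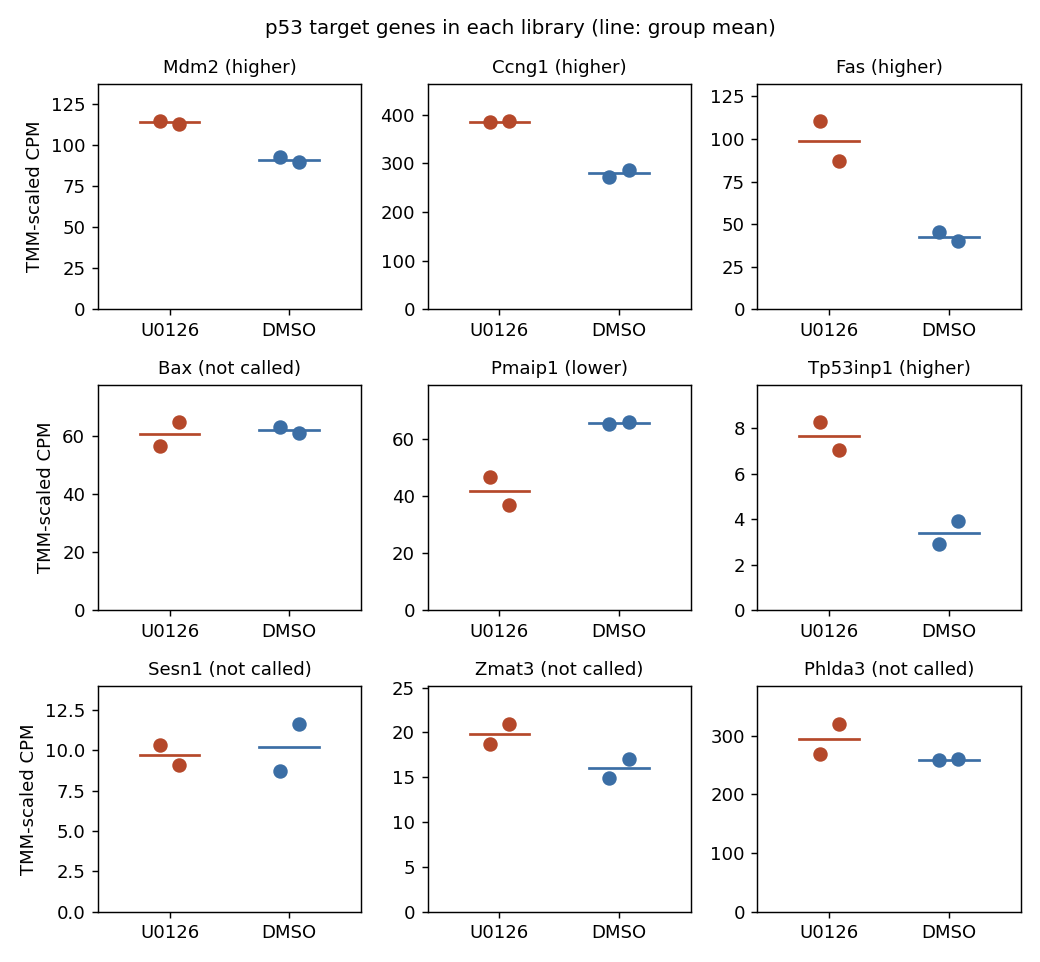
Level of each of the 9 p53 targets in TMM-scaled CPM (vertical axis, from 0, its own range in each panel) in the 2 U0126 and the 2 DMSO libraries, with points for libraries and a line for the group mean. Fas and Tp53inp1 show the widest separation upward and Pmaip1 is the gene whose U0126 libraries lie below both DMSO libraries.

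Mdm2, the ligase that marks p53 for degradation (chromosome 7, 60719066 to 60743328, minus strand, rn6), had 115 and 113 CPM in the U0126 libraries, against 92.6 and 89.6 CPM in the DMSO libraries. CPM are counts relative to library size, here scaled by the TMM factors. Both U0126 libraries lay above both DMSO libraries, and within each group the libraries were close together. The means were 114 ± 1.05 CPM with U0126 and 91.1 ± 2.13 CPM with DMSO (SD, n = 2 each), a 1.25-fold rise (95% interval 1.09 to 1.44, edgeR adjusted p = 0.0390). The call was near the threshold. It was lost in 6 of the 12 alternatives, among them library totals in place of TMM (adjusted p = 0.0691), no filter on low counts (0.0552), limma on log2(TPM + 0.5) (0.0715) and leaving out DMSO replicate 1 (0.252) or 2 (0.337), in a range of 0.0184 to 0.337 over the 12.

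Ccng1, cyclin G1, which recruits a phosphatase that acts on Mdm2 (chromosome 10, 25903911 to 25910325, minus strand, rn6), had 385 and 386 CPM with U0126, against 273 and 287 CPM with DMSO. The groups did not overlap, and the U0126 libraries were nearly equal. Ccng1 averaged 386 ± 0.762 CPM with U0126 and 279.9 ± 10.1 CPM with DMSO, a 1.38-fold rise (95% interval 1.20 to 1.59, edgeR adjusted p = 0.0108). Without DMSO replicate 1 the adjusted p was 0.151 and without replicate 2 it was 0.104, while the other 10 alternatives kept the call, the lowest at 6.99e-05. With either DMSO library left out the remaining one was assumed to vary like the U0126 group, and the share of all genes passing was 6.32% without replicate 1 and 6.24% without replicate 2. It was 22.8% without U0126 replicate 1 and 32.1% without U0126 replicate 2.

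Among the genes of cell death, one rose, one fell and one did not pass. Fas, the cell surface death receptor (chromosome 1, 252589785 to 252624790, plus strand, rn6), had 110.4 and 87.0 CPM with U0126, against 45.1 and 40.2 CPM with DMSO. Both U0126 libraries were well above both DMSO libraries, with replicate 1 the higher of the U0126 pair. The rise was 2.31-fold (95% interval 1.85 to 2.89, edgeR adjusted p = 0.00145) and the call held in all 12 alternatives, with a log2 fold change between 1.03 and 1.36.

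Pmaip1, which encodes Noxa, a BH3-only protein that binds and neutralises Mcl1 (chromosome 18, 62174670 to 62181102, plus strand, rn6), had 46.7 and 37.0 CPM with U0126, against 65.2 and 65.9 CPM with DMSO. Both U0126 libraries were below both DMSO libraries. The means were 41.8 ± 6.84 and 65.5 ± 0.465 CPM, a ratio of 0.638 (95% interval 0.520 to 0.784, edgeR adjusted p = 0.0127). The call was lost without DMSO replicate 1 (adjusted p = 0.0974) or 2 (0.109) and kept in the other 10 alternatives, down to 1.62e-04.

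Bax, the pore-forming BCL2 family member of the mitochondrial outer membrane, had 56.5 and 64.8 CPM with U0126, against 63.3 and 61.0 CPM with DMSO. The U0126 libraries lay on either side of both DMSO libraries. The ratio was 0.975 with a 95% interval of 0.825 to 1.15 (edgeR adjusted p = 0.838). On the per-length scale of the deposited TPM values the picture for Bax was different, with 98.7 and 114 TPM in the U0126 libraries and 124 and 119 TPM in the DMSO libraries, which do not overlap. The length implied by the deposited counts and FPKM values was 0.10 higher on the log2 scale with U0126 for Bax. For the other 8 targets it moved by less than 0.01, and 4.35% of 10591 well-counted genes moved by more than 0.05. The deposited TPM values also carry no TMM factors. For Bax the log2 ratio of group means was -0.19 in TPM and -0.036 in CPM. The other 8 targets had lower ratios in TPM too, as with Fas (1.15 in TPM and 1.21 in CPM). Tested on log2(TPM + 0.5) with limma, an alternative added after the data were seen, Bax still did not pass (adjusted p = 0.209, in a range of 0.209 to 0.981 over the alternatives). Bax and Pmaip1 are the members of the BCL2 family among these genes.

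Because Fas rose and Pmaip1 fell, their order reversed. Fas had 2.57 and 2.55 times the TPM of Pmaip1 in the U0126 libraries, against 0.751 and 0.662 times in the DMSO libraries. Fas relative to Bax was 0.750 and 0.520 in TPM with U0126 and 0.252 and 0.241 with DMSO.

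Tp53inp1, a stress protein that promotes p53 activity and autophagy (chromosome 5, 24410863 to 24416888, plus strand, rn6), rose from a low level. It had 8.25 and 7.04 CPM with U0126, against 2.90 and 3.93 CPM with DMSO, resting on 313 and 255 counts with U0126 and 115 and 171 with DMSO. The groups did not overlap, although the DMSO libraries differed from each other. The means were 7.64 ± 0.854 and 3.41 ± 0.727 CPM, a 2.24-fold rise (95% interval 1.57 to 3.18, edgeR adjusted p = 0.0106). Without DMSO replicate 1, the lower of the DMSO pair, the adjusted p was 0.104, and the other 11 alternatives kept the call, down to 6.05e-04.

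Sesn1, sestrin 1, which restrains the growth kinase mTORC1, had 10.3 and 9.06 CPM with U0126, against 8.70 and 11.6 CPM with DMSO. The U0126 libraries lay between the DMSO libraries. The ratio was 0.953 (95% interval 0.704 to 1.29, edgeR adjusted p = 0.826). Its promoter window holds 1 match to the 10-base p53 consensus, and so does that of Ccng1, which rose. A full p53 site holds a pair, and 6.64% of all promoters held such a match.

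Zmat3, an RNA-binding zinc finger protein, had 18.7 and 21.0 CPM with U0126, against 14.9 and 17.1 CPM with DMSO. The U0126 libraries were both above the DMSO libraries, by a margin smaller than the spread within either group. The ratio was 1.24 (95% interval 0.996 to 1.55, edgeR adjusted p = 0.154), and none of the 12 alternatives called it.

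Phlda3, a pleckstrin homology domain protein that competes with Akt for membrane lipids, had 269 and 320.4 CPM with U0126, against 258 and 260.2 CPM with DMSO. Both U0126 libraries were above both DMSO libraries in CPM, with replicate 1 above them by a small margin. On the TPM scale its groups overlapped, with 323 and 389.9 TPM with U0126 and 319.5 and 334 TPM with DMSO. The ratio in CPM was 1.14 (95% interval 0.953 to 1.36, edgeR adjusted p = 0.278). Without U0126 replicate 1 it passed as higher (adjusted p = 0.0306), and its adjusted p reached 0.747 over the other alternatives.

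**Figure D2:**
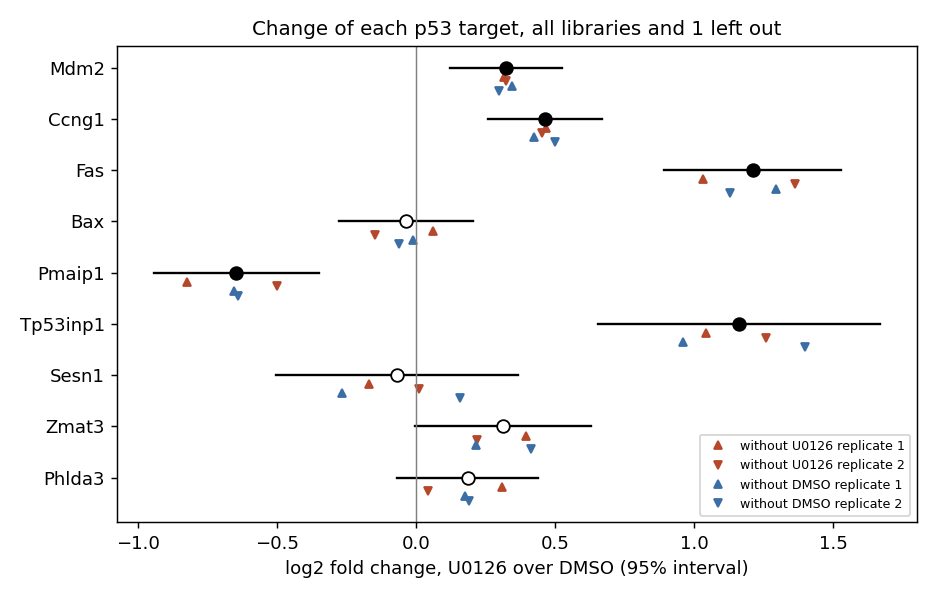
Log2 fold change, U0126 over DMSO, of each p53 target (horizontal axis), as a circle with its 95% interval, filled where the edgeR adjusted p was under 0.05; triangles give the value with 1 library left out. Fas, Tp53inp1, Ccng1 and Mdm2 stay right of 0 and Pmaip1 left of 0 in all 4 of these fits, while Bax and Sesn1 have values on both sides.

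Levels of different genes can be compared only per length, here in TPM. Phlda3 was the most abundant of the 9 in both groups, at 356 ± 47.4 TPM with U0126 and 327 ± 10.5 TPM with DMSO, and Ccng1, Bax and Mdm2 followed in that order. With U0126 the order went on with Fas (66.6 ± 10.6 TPM), Zmat3 (26.7 ± 2.37), Pmaip1 (26.0 ± 4.03), Tp53inp1 (12.9 ± 1.35) and Sesn1 (4.84 ± 0.403). With DMSO it went on with Pmaip1 (42.6 ± 1.42 TPM), Fas (30.0 ± 1.68), Zmat3 (22.4 ± 2.74), Tp53inp1 (6.03 ± 1.43) and Sesn1 (5.31 ± 1.22). The libraries of neighbours overlapped for Zmat3 and Pmaip1 with U0126 and for Tp53inp1 and Sesn1 with DMSO, and for no other neighbours in either order. Between the most and the least abundant target the TPM differed 63.0-fold and 85.7-fold in the U0126 libraries and 71.8-fold and 54.2-fold in the DMSO libraries.

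**Figure D3:**
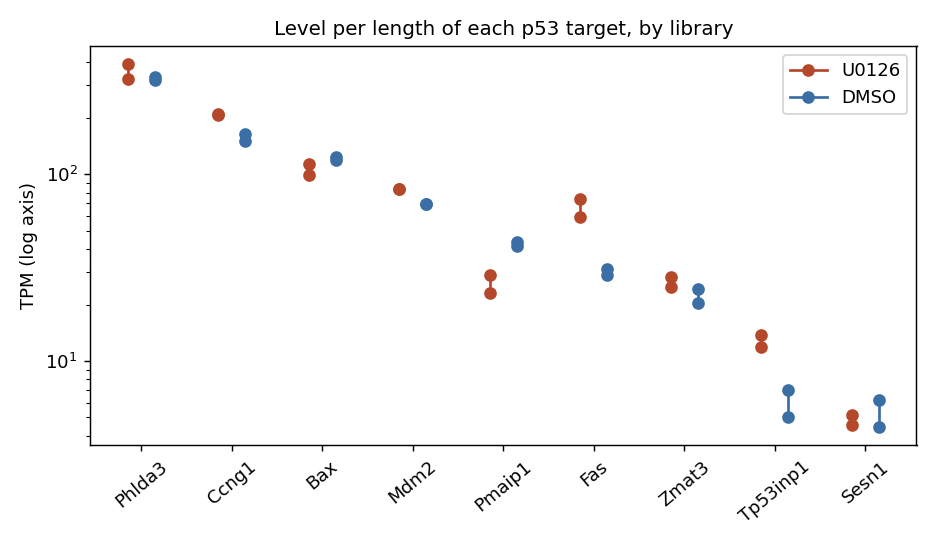
TPM (log axis) of each p53 target in the 2 U0126 libraries and the 2 DMSO libraries, joined by a line within a group and ordered by the DMSO mean. Pmaip1 lies above Fas with DMSO and below it with U0126.

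Mdm4, which binds and inhibits p53, had 8.30 and 5.83 CPM with U0126 and 5.72 and 5.58 CPM with DMSO (adjusted p = 0.330). Its log2 fold change was 0.32 with all 4 libraries and rested on 1 U0126 library. It was 0.55 without U0126 replicate 2 and 0.046 without U0126 replicate 1.

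Of 17 tested genes of a list of p53 regulators, edgeR called 0, beside 19.9% of all genes, and DESeq2 and limma-voom called 0 as well, beside 20.9% and 20.3% of all genes. At an unadjusted edgeR p under 0.05, 0 were higher and 2 lower, and the share of all genes at that threshold was not counted. Cop1, a ubiquitin ligase of p53 and the regulator with the highest mean CPM, had 113 and 99.5 CPM with U0126, against 107 and 118 CPM with DMSO (edgeR adjusted p = 0.622), and its groups overlapped. Without U0126 replicate 2, 1 regulator was higher and 3 were lower, beside 32.1% of all genes called. With library totals alone, and with CPM of at least 1 in all 4 libraries, 1 regulator was lower. The median log2 fold change of the 17 was 0.026.

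Among 33 tested p53 targets outside the 9, 6 rose and 3 fell, and 24 did not pass. Thus 27.3% were called. Among all tested genes 19.9% were called, 8.41% as higher and 11.5% as lower. Cdkn1a, the p21 inhibitor of cyclin-dependent kinases, had 338 and 393 CPM with U0126, against 234 and 214 CPM with DMSO. Its groups did not overlap, and the rise was 1.63-fold (edgeR adjusted p = 0.00476). The call was lost without DMSO replicate 2 (adjusted p = 0.0718), the highest over the alternatives, and the lowest was 2.44e-07. Ddit4, a stress-induced inhibitor of mTORC1, rose 3.29-fold to 79.6 ± 14.9 CPM with U0126, against 24.2 ± 1.92 CPM with DMSO, and was called in all 12 alternatives. Sesn2, sestrin 2, the relative of Sesn1, rose 1.59-fold to 131 ± 22.3 CPM, against 82.4 ± 3.21 CPM with DMSO.

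The other risers outside the 9 were DNA repair genes at lower levels. Ercc5, the XPG endonuclease of nucleotide excision repair, averaged 11.9 ± 0.884 CPM with U0126 and 5.70 ± 0.987 CPM with DMSO. Ddb2, a damage sensor of the same pathway, averaged 4.66 ± 0.456 and 2.35 ± 0.137 CPM. Xpc, named after its values were seen, belongs to that pathway too and averaged 25.7 ± 0.696 CPM with U0126 and 19.4 ± 0.477 CPM with DMSO. The edgeR adjusted p was 0.00707 for Ercc5, 0.0194 for Ddb2 and 0.0419 for Xpc. The Xpc call was lost in 6 of the 12 alternatives, among them library totals alone (adjusted p = 0.0653) and leaving out DMSO replicate 1 (0.252) or 2 (0.326), in a range of 0.0251 to 0.326.

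Gls2, a mitochondrial glutaminase, had 20.0 and 27.7 CPM with U0126, against 58.7 and 60.9 CPM with DMSO. The U0126 libraries were below both DMSO libraries, the ratio was 0.398 (edgeR adjusted p = 0.00179), and the call held in all 12 alternatives. Polh, a translesion DNA polymerase, and Ppm1d, a phosphatase that turns off p53 signalling, were the other members that fell, to 6.19 ± 0.158 and 9.39 ± 0.472 CPM with U0126, against 9.80 ± 0.679 and 13.6 ± 0.876 CPM with DMSO (edgeR adjusted p = 0.0249 and 0.0389). The median log2 fold change of the 33 was 0.13, and 27.3% of them passed, beside 19.9% of all genes. Without DMSO replicate 1 or 2 fewer genes of the list passed, and fewer of all tested genes passed too. Sesn2, Ddb2, Polh and Ppm1d lost their calls without either DMSO library (adjusted p between 0.0886 and 0.312), and Ercc5 without DMSO replicate 2 (0.0846). The Ppm1d call was lost in 4 of its 12 alternatives in all, among them limma on log2(TPM + 0.5) (0.0573). Over all alternatives the lowest adjusted p was 9.41e-05 for Sesn2, 0.00791 for Ddb2, 0.0152 for Polh, 0.0200 for Ppm1d and 7.98e-05 for Ercc5.

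Partners of Fas, Bax and Pmaip1 in death signalling, the adaptors, caspases and BCL2 family members of a list of 20, stayed mostly uncalled. By edgeR 1 of the 17 tested rose (5.88%, beside 19.9% of all genes called in either direction), 0 fell and 16 were not called. DESeq2 called 1 lower and limma-voom 0, beside 20.9% and 20.3% of all genes in either direction. At an unadjusted edgeR p under 0.05, 3 were lower, and the share of all genes at that threshold was not counted. The riser was Bmf, a BH3-only protein, with 9.93 and 5.77 CPM with U0126, against 2.45 and 2.71 CPM with DMSO. Its groups did not overlap, the U0126 libraries differed widely, and the rise was 3.04-fold (edgeR adjusted p = 0.00892). The call was lost without DMSO replicate 1 (adjusted p = 0.0776) or 2 (0.0630), and its lowest adjusted p was 3.30e-05. Without U0126 replicate 2, 2 partners were higher and 4 lower, beside 32.1% of all genes called. The median log2 fold change of the 17 was -0.11.

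**Figure D4:**
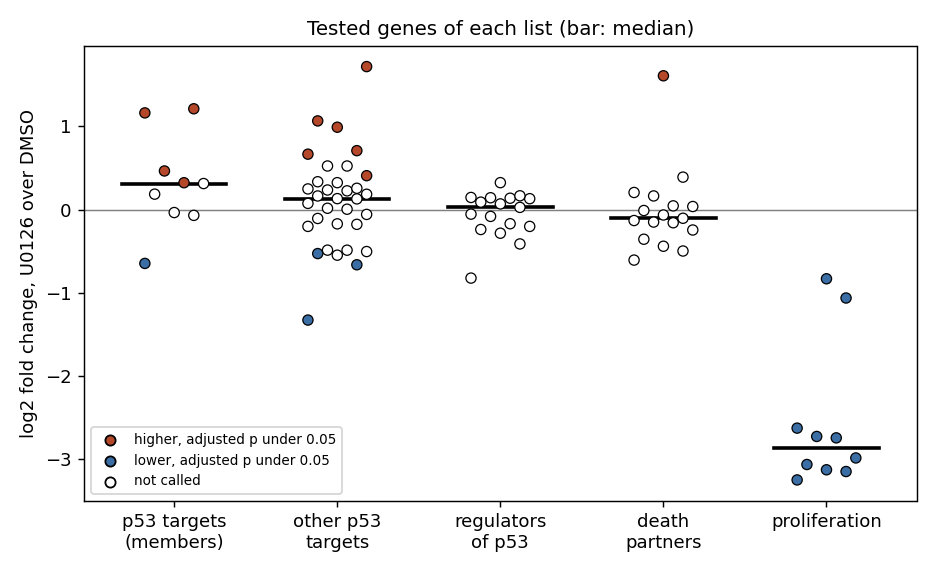
Log2 fold change, U0126 over DMSO (vertical axis), of each tested gene of 5 lists, with a bar at the median; filled points had an edgeR adjusted p under 0.05. The p53 targets have a median of 0.31, the other p53 targets 0.13, regulators of p53 0.026, the death partners -0.11 and the proliferation genes -2.86.

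Proliferation genes and markers of other cells moved alongside. The lists here were chosen with earlier results of these data known, and among all tested genes 8.41% were called higher and 11.5% lower. All 10 genes of the proliferation list fell, 1.78-fold to 9.50-fold. Their summed level was 127 and 101 CPM with U0126, against 493 and 503 CPM with DMSO. Of 10 ERK output genes 8 fell, with a median log2 fold change of -0.94. Total counts were 36888913 to 38671289 with U0126 and 38890310 to 42785190 with DMSO, and mitochondrially encoded genes took 4.82% to 5.64% of them with U0126 and 2.98% to 3.48% with DMSO. Of 7 tested tendon and fibroblast markers 3 rose and 1 fell, Col1a1 averaged 22229 CPM with U0126 and 22414 CPM with DMSO, and the mature tendon gene Tnmd had too few counts to be tested. Of 6 skeletal muscle markers 3 fell and 3 were not tested, summing to 3.37 and 3.64 CPM with U0126 and 12.4 and 9.60 CPM with DMSO, with Pax7 at 0. Smooth muscle and pericyte markers (2 higher and 2 lower of 5 tested) summed to 514 and 666 CPM with U0126 and 762 and 918 CPM with DMSO. Leukocyte markers (1 of 4 tested lower) summed to 11.5 and 11.2 CPM with U0126 and 14.1 and 13.0 CPM with DMSO, nearly all from Cd14, with Ptprc and Aif1 at 0. Of 6 listed endothelial markers, the 5 in the table stayed under 1 CPM in sum, with Cdh5, Tie1 and Emcn at 0. Pecam1 was not analysed here. Epithelial markers (1 of 2 tested higher) summed to 3.74 and 3.84 CPM with U0126 and 2.62 and 2.83 CPM with DMSO. The median log2 fold change of the 2 tested was 3.40, at these low levels, and Epcam, Cdh1, Krt5 and Cldn4 were at 0. The part of these differences in the p53 target results was not tested, and in bulk RNA fewer cells of a type and less RNA per cell cannot be told apart.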

How the data were processed

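RNA-seq libraries of TSPCs, 2 given U0126 and 2 given DMSO, were compared. The authors deposited 1 table with counts, TPM and FPKM per gene and library, per the file headers; counts were whole and not normalized. TPM values (deposited, scaled to gene length and a fixed library total) were used to compare levels between genes, and deposited FPKM values only for implied gene lengths. Per the submitters' processing notes the genome build was rn6. No aligner, counter, strandedness or annotation version is given in the sources used here. Overlapping genes can therefore not be separated by strand, and no overlapping annotated gene of the 9 targets had more than 3 counts. Columns were matched by the letter and number in their headers, with 0 unmatched.

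Genes passing filterByExpr (minimum count 10, minimum total 15) were tested with edgeR 4.0.16 in R 4.3.3 (TMM, glmQLFit, glmQLFTest, two-sided), checked on simulated data. Standard errors were obtained from each gene's fold change and F statistic, and 95% intervals use the test's degrees of freedom. DESeq2 1.42.0 and limma 3.58.1 were alternatives. The 12 gene lists, with the members as 1 of them, were chosen with earlier results of these data known. Named genes are the targets, Mdm4, Cdkn1a, and per related list the 8 called genes lowest in adjusted p, or where none was called the one highest in mean CPM; some genes of the rule are not reported here. Intervals cover only the spread modelled between libraries.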

Additional observations from a re-analysis of the deposited data

How the results depend on the processing

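The 8 alternatives that kept all 4 libraries left the 9 targets at 3 or 4 higher and 1 lower, with 14.2% to 21.1% of all genes called. Leaving out 1 library gave 1 to 5 higher and 0 to 1 lower targets, 295 to 2138 higher and 604 to 2506 lower genes in all, 1 to 7 higher and 1 to 5 lower other p53 targets, 0 to 1 higher and 0 to 3 lower regulators, and 0 to 2 higher and 0 to 4 lower death partners. With all 4 libraries, 1 regulator was lower with library totals alone and with CPM of at least 1 in all 4 libraries, and 1 death partner was lower with library totals alone, DESeq2 and log2(TPM + 0.5). Leaving out 1 library turned the sign of 2 log2 fold changes, which ranged from -0.15 to 0.060 for Bax (positive without U0126 replicate 1) and from -0.27 to 0.16 for Sesn1 (0.011 without U0126 replicate 2 and 0.16 without DMSO replicate 2); the cause was not tested. With a replicate block 2371 genes passed, beside 2792 without it, with 3 higher and 1 lower target, and Mdm2 (adjusted p = 0.0677), Ppm1d (0.0636) and Xpc (0.0738) lost their calls. The differences between replicates 1 and 2 correlated at -0.046 between the groups over 14023 genes, so the shared numbers are not shown to pair libraries. Among 252 values of single genes, 216 kept direction and side of the threshold. With 2 libraries per group, the smallest called change among the targets was the 1.25-fold rise of Mdm2.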
